A study of Mus musculus with 2 samples.

Results

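The clustered protocadherins are neuronal cell-surface proteins of the cadherin family that are encoded in 3 neighbouring gene clusters, alpha, beta and gamma. All genes whose symbol names an alpha, beta or gamma A, B or C protocadherin were taken, which gave 58 of the 43346 genes measured. Of these, 14 were alpha, 22 beta and 22 gamma genes, and 5 of the alpha and gamma genes were of the C type. RNA had been sequenced from the hindbrain of B6NCrl mouse embryos at embryonic day 15.5, in 2 libraries of 1 group that differ by replicate and not by treatment or genotype. Replicate 1 was a pool of 78 embryos and replicate 2 a pool of 62, each holding males and females. The input of each library was 10 ng of total RNA of more than 200 nt, to which synthetic spike-ins had been added. With 1 group there was no contrast between conditions, so the comparisons are those between clusters, between C-type and other isoforms, and between the 2 pools, and no p-value was computed.

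In the alpha and gamma clusters each gene has its own large variable exon, which codes for the extracellular cadherin repeats and the membrane span and is spliced to a set of constant exons shared by the whole cluster. The beta genes have a single coding exon and no constant part. Individual neurons switch on a small, largely random set of the variable promoters, and the proteins bind like to like across membranes, which lets the branches of a neuron recognise each other. The C-type genes at the end of the alpha and gamma clusters are the exception, since their use is regulated by cell type and not by random choice.

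On mouse chromosome 18 (mm10, GRCm38), all 58 genes lay on the plus strand. The alpha cluster spanned chr18:36930184-37187661, the beta cluster chr18:37264938-37524479 and the gamma cluster chr18:37661793-37841873. They were 77.3 kb apart between alpha and beta and 137 kb apart between beta and gamma. In the annotation, 2860 exon bases stood in all 14 alpha genes and 2116 exon bases in all 22 gamma genes, which are the constant exons. No exon base was common to all beta genes, and no base there was held by more than 2 of them. The 58 genes had 88 transcripts in the tables, with 1 transcript in 37 genes and several in 21.

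Replicate 1 had 40020322 estimated counts over all genes and replicate 2 had 43263959. Of these, 43115 and 51500 fell in clustered protocadherin genes, which is 0.108% and 0.119% of the gene counts. Levels are given in TPM, a relative abundance corrected for transcript length, as mean ± SD with n = 2 libraries. The hindbrain label was set against marker genes. Of 10 hindbrain markers 9 were at 1 TPM or more in both libraries, as were 6 of 6 markers of postmitotic neurons. The same held for 1 of 6 forebrain and 1 of 5 caudal spinal cord markers. The forebrain one, Lhx2, had 50.7 TPM (replicate 1) and 9.96 TPM (replicate 2), in replicate 1 above every hindbrain marker listed. The caudal one, Hoxc8, had 1.88 and 13.4 TPM. Markers of radial glia (5 of 5), blood (4 of 4 erythroid genes), meninges (4 of 4) and choroid plexus (3 of 4) reached 1 TPM in both libraries too. The tissue thus held many cells that are not neurons. In such a mixture, fewer cells expressing a gene and less of its RNA per cell cannot be told apart.

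Nearly the whole family was expressed in the E15.5 hindbrain, and most of it at low levels. At 1 TPM or more in both libraries, 55 of the 58 genes were detected, against 63.1% of the 21461 nuclear protein-coding genes and 35.6% of all genes. The median over the 58 genes was 4.01 ± 0.293 TPM, below the median of 5.72 TPM over all nuclear protein-coding genes and of 19.4 TPM over those detected. Summed over the family, the level was 407 TPM (replicate 1) and 470.0 TPM (replicate 2). A pair of C-type gamma genes, Pcdhgc4 and Pcdhgc3, stood above all others. The other 56 genes had a median of 3.82 ± 0.400 TPM and none exceeded 14.3 TPM on average.

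**Figure D1:**
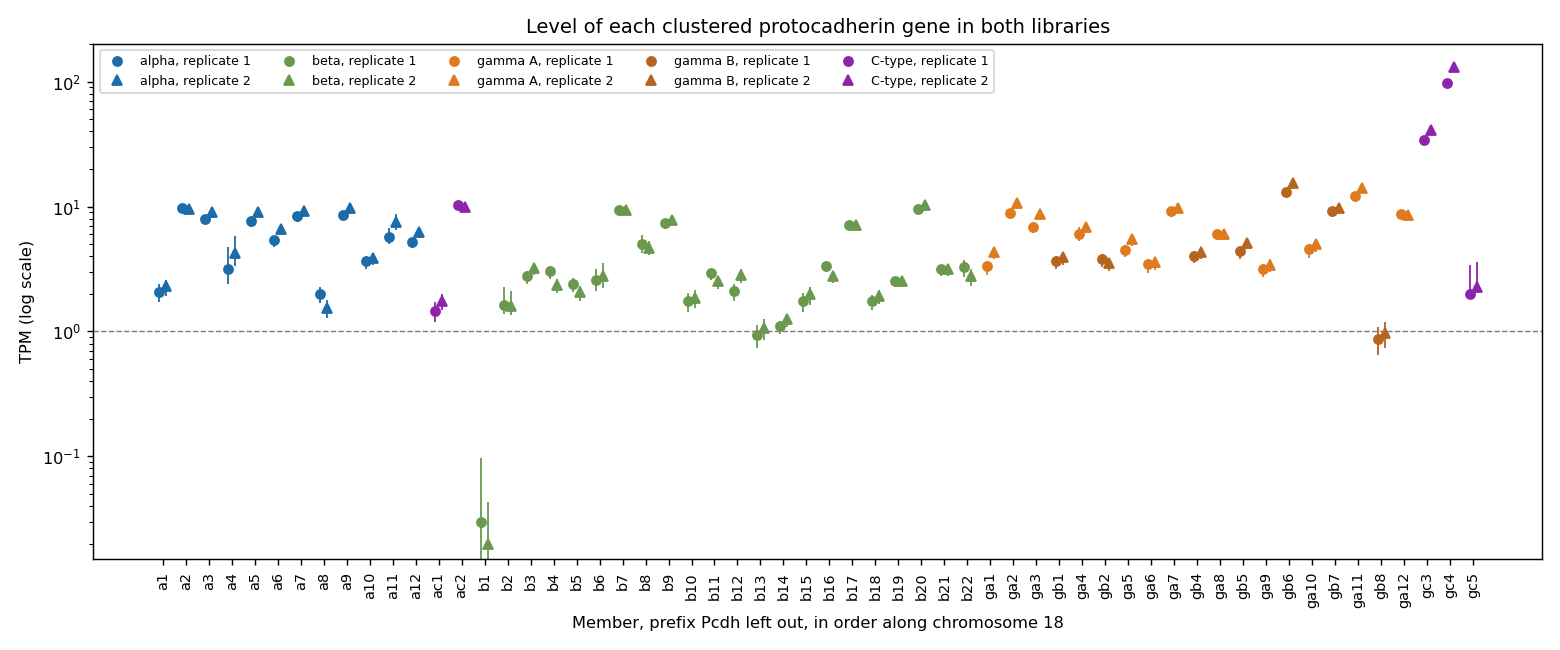
TPM of the 58 genes (log scale, y axis) in their order along chromosome 18 (x axis), with circles for replicate 1 and triangles for replicate 2, colours for the subfamilies and the deposited interval of each value as a bar. The dashed line marks 1 TPM, and Pcdhb1 in replicate 2, listed at 0, is drawn at the foot of the plot; Pcdhgc4 and Pcdhgc3 lie above every other gene in both libraries.

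The 5 C-type genes spread over nearly the whole range of the family. Pcdhgc4 (ENSMUSG00000023036, chr18:37815079-37841873), known in mice as the isoform that spinal and cortical interneurons need to survive, had 97.6 TPM (replicate 1) and 131 TPM (replicate 2). Pcdhgc3 (ENSMUSG00000102918, chr18:37806364-37841873), which promotes dendrite branching of cortical neurons in mice, had 34.1 and 41.0 TPM. Both values of Pcdhgc4 were above both values of Pcdhgc3. Pcdhac2 (ENSMUSG00000102697, chr18:37143503-37187657), which serotonergic axons in mice need to spread evenly over their targets, had 10.2 and 9.99 TPM. Pcdhgc5 (ENSMUSG00000102543, chr18:37819513-37841873), the last gene of the gamma cluster, had 2.00 and 2.27 TPM. Pcdhac1 (ENSMUSG00000103255, chr18:37090013-37187657), the other C-type gene of the alpha cluster, had 1.47 and 1.76 TPM. These last genes were low in both libraries, at ranks 48 and 53 of 58, so a place at the C-type end of a cluster did not by itself go with a high level.

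The 12 other alpha genes, Pcdha1 to Pcdha12, are the randomly chosen isoforms of the first cluster, and all 12 were detected. Pcdha2 was the highest, at 9.81 TPM (replicate 1) and 9.57 TPM (replicate 2). Pcdha9 had 8.63 and 9.74 TPM. Pcdha7 had 8.41 and 9.24 TPM, and Pcdha3 had 7.99 and 8.96 TPM. The values of Pcdha9, Pcdha7 and Pcdha3 overlapped, as did those of Pcdha2 and Pcdha9, while Pcdha2 was above Pcdha7 and Pcdha3 in both libraries. Pcdha8 was the lowest with 2.00 and 1.55 TPM. Pcdha1, the first gene of the cluster, had 2.08 and 2.29 TPM. The lowest and the highest alpha genes did not overlap, and the mean of Pcdha2 was 9.69 ± 0.170 TPM against 1.77 ± 0.318 TPM for Pcdha8. The remaining alpha genes had means between 3.74 ± 0.771 TPM (Pcdha4) and 8.37 ± 0.983 TPM (Pcdha5). High and low genes lay side by side along the cluster. Pcdha8, for example, lies between Pcdha7 and Pcdha9, whose values in either library were all above 8 TPM. An identifier that the newer annotation also calls Pcdha11 (ENSMUSG00000007440) is given here as Pcdha10, the name RefSeq gives to the gene that starts there, and it had 3.64 and 3.87 TPM.

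The 22 beta genes carry no constant exons, and each has its own promoter and coding exon. Of these 20 were detected, and the median over all 22 was 2.69 ± 0.0177 TPM. Pcdhb20 was the highest with 9.58 TPM (replicate 1) and 10.2 TPM (replicate 2). Pcdhb7 had 9.43 and 9.39 TPM. Pcdhb9 had 7.33 and 7.85 TPM, and Pcdhb17 followed with 7.08 and 7.05 TPM. These 4 stood clear of the other beta genes, of which the next, Pcdhb8, had 4.97 and 4.64 TPM. Pcdhb1, the first beta gene, is set apart from the rest. It had 2 counts (0.0300 TPM) in replicate 1 and 0 counts in replicate 2, where a count of 0 allows up to 0.0441 TPM (3 counts). Pcdhb13 had 0.940 and 1.06 TPM, just around the detection level. All other beta genes had means between 1.18 ± 0.113 TPM (Pcdhb14) and 4.80 ± 0.233 TPM (Pcdhb8).

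In the gamma cluster, A-type and B-type genes are interspersed, and both kinds are spliced to the same constant exons. All 12 gamma A genes were detected. Their median was 6.25 ± 0.255 TPM. Pcdhga11 was the highest of them with 12.1 TPM (replicate 1) and 14.0 TPM (replicate 2). Pcdhga2 had 8.91 and 10.7 TPM. Pcdhga7 had 9.13 and 9.69 TPM, within the range of Pcdhga2, and Pcdhga12 had 8.67 and 8.63 TPM. Pcdhga9 was the lowest with 3.14 and 3.43 TPM. Pcdhga6 had 3.44 and 3.59 TPM, so no gamma A gene was near the detection level.

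The 7 gamma B genes had a median of 4.17 ± 0.177 TPM, and 6 were detected. Pcdhgb6 led with 13.1 TPM (replicate 1) and 15.5 TPM (replicate 2), the highest outside the C type and overlapping Pcdhga11. Pcdhgb7 had 9.15 and 9.72 TPM. Pcdhgb5 had 4.39 and 5.13 TPM. Pcdhgb4 had 4.05 and 4.30 TPM, and Pcdhgb2 3.78 and 3.51 TPM. The lowest, Pcdhgb8, is annotated as a polymorphic pseudogene and had 0.870 and 0.970 TPM. The highest gamma B genes and Pcdhga11 lie close together in the downstream part of the cluster, and Pcdhgb8 lies next to them, between Pcdhga11 and Pcdhga12.

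By cluster, the gamma genes held most of the family's RNA. Their summed level was 249.6 TPM (replicate 1) and 303 TPM (replicate 2), which is 63.0 ± 2.24% of the TPM of all 58 genes. The alpha genes summed to 81.4 and 90.8 TPM, or 19.7 ± 0.509%. The beta genes summed to 75.5 and 75.8 TPM, or 17.4 ± 1.73%. The shares of alpha and beta were thus close, and both lay below that of gamma in each library by far more than the libraries differed.

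The C-type genes held a larger share of the gamma TPM than of the alpha TPM. Together the 5 C-type genes summed to 145 TPM (replicate 1) and 186 TPM (replicate 2), against 261 and 284 TPM for the 53 other genes. That is 37.6 ± 2.63% of the family's TPM, and 45.5 ± 2.24% of that of the alpha and gamma clusters. The median of the C-type genes was 10.1 ± 0.170 TPM and that of the 53 others, beta genes included, 3.85 ± 0.368 TPM. Over the 31 alpha and gamma genes that are not of the C type, the median was 6.02 ± 0.622 TPM. Within gamma, the C-type genes held 55.4 ± 2.64% of the gene TPM, but 46.8% by estimated counts, 40.6% without the short Pcdhgc4 transcript described below and 32.9% by transcripts with both variable and constant exons. Within alpha they held 13.7 ± 1.01% of the gene TPM. Without its C-type genes, the gamma cluster had 76.8 and 86.5 TPM in gamma A and 39.0 and 43.0 TPM in gamma B, while Pcdha1 to Pcdha12 had 69.7 and 79.0 TPM. On this scale the 12 gamma A and the 12 alpha genes were of like level per gene.

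The leading value of Pcdhgc4 rests mainly on a short transcript. The full-length transcript Pcdhgc4-201, of 5024 nt, holds the variable and the constant exons and had 17.9 TPM in both libraries. Pcdhgc4-202, of 3100 nt, is annotated as a retained intron without the constant exons and had 23.6 TPM (replicate 1) and 28.9 TPM (replicate 2). Pcdhgc4-203, of 2272 nt, is annotated as coding, and 93.3% of its bases are the constant exons that every gamma gene carries. It had 56.2 and 83.8 TPM, which is 57.6% and 64.2% of the gene's TPM. Only 153 of its bases lie outside the exons of other protocadherin genes, and 6.95% of its 100-nt windows occur in no other gene. How many of its reads came from other gamma genes cannot be told apart with these tables.

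By full-length coding transcripts the order of the top C-type genes was the opposite. Pcdhgc3-201, of 4687 nt, had 26.4 TPM (replicate 1) and 34.8 TPM (replicate 2), above the 17.9 TPM of Pcdhgc4-201 in both. A second Pcdhgc3 transcript, annotated as a target of nonsense-mediated decay, had 7.18 and 5.98 TPM. Both full-length transcripts still stood above the gene level of every isoform outside the C type.

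**Figure D2:**
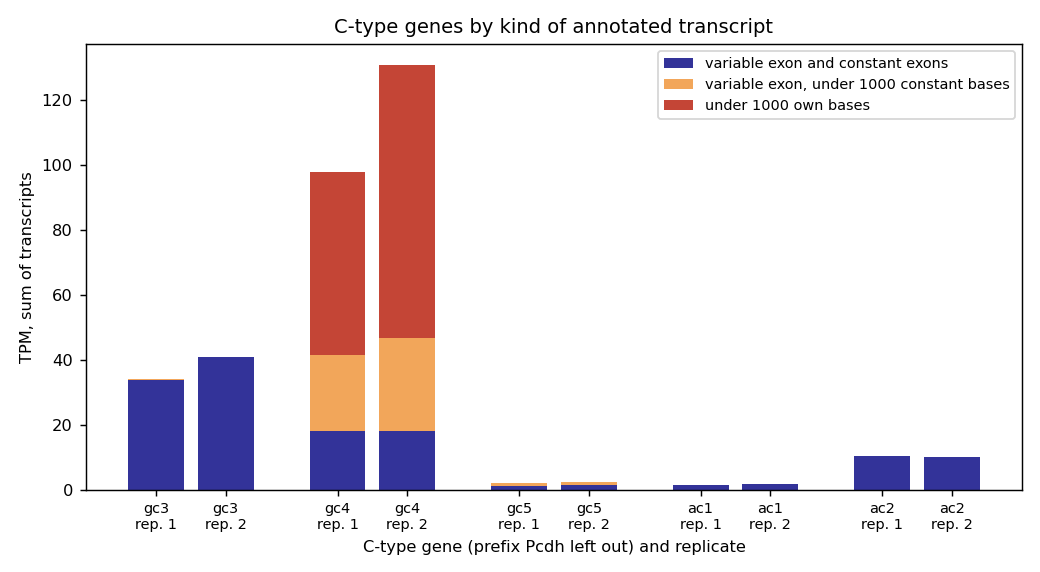
TPM of the 5 C-type genes (y axis), by gene and replicate (x axis), stacked by kind of annotated transcript. The kinds are variable plus constant exons, variable exon with under 1000 constant bases, and transcripts with under 1000 own bases. Own bases are those outside the exons of other protocadherin genes. Most of the bar of Pcdhgc4 is the short transcript at 56.2 and 83.8 TPM, while Pcdhgc3 consists almost wholly of transcripts with both parts.

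Counting only transcripts with both a variable part and the constant exons (for beta, complete transcripts), the C-type share was 21.0% of the family, against 37.6% by gene TPM. The gamma share was then 52.8%, with 24.3% for alpha and 22.9% for beta, so gamma remained highest. Leaving out only Pcdhgc4-203, the C-type share was 25.9% and the gamma share 56.0%. By estimated counts, which are not corrected for length, the C-type genes held 31.5% and the gamma cluster 59.3%. The size of the C-type share therefore depends on how Pcdhgc4 is counted, while gamma was above alpha and beta under each of these measures.

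**Figure D3:**
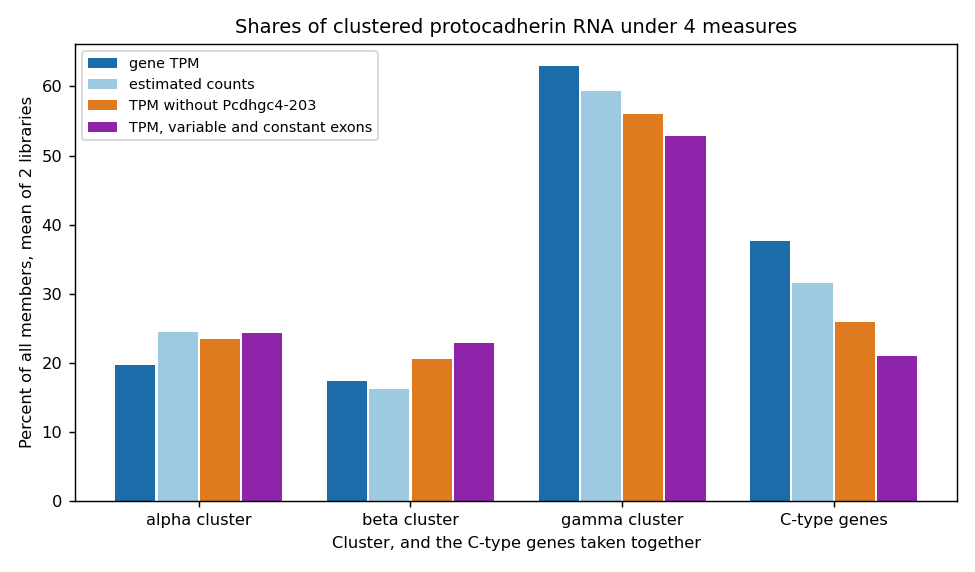
Percent of the RNA of all 58 genes (y axis, mean of both libraries) in the alpha, beta and gamma cluster and in the 5 C-type genes, which are also part of alpha and gamma (x axis), under 4 measures given by colour. Gamma ranges between 52.8% and 63.0% and stays above alpha and beta, and the C-type share ranges between 21.0% and 37.6%.

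Among the 21 genes with several transcripts, the leading transcript was the same in both libraries in 20. In 15 it joined the variable exon to the constant exons, and in 4 it was a complete beta transcript. The transcripts with both parts made up 91.8 ± 0.423% of alpha TPM and 93.9 ± 1.04% of the TPM of gamma A and gamma B together, but 37.0 ± 3.28% of that of the C-type gamma genes. Pcdhgc4 was one exception, and Pcdha11 the other, with a retained-intron transcript in the lead at 3.14 TPM (replicate 1) and 3.59 TPM (replicate 2). The gene whose leader differed was Pcdha6. Its transcript Pcdha6-202 had 4.35 and 2.20 TPM, and Pcdha6-201 had 1.03 and 4.46 TPM. These forms share the variable exon and differ at the constant end, and the deposited intervals of Pcdha6-202, 1.46 to 5.02 TPM in replicate 1 and 0.598 to 4.50 TPM in replicate 2, overlap. The gene's own total was steadier, at 5.38 and 6.65 TPM.

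The assignment of reads was uncertain in every alpha and gamma gene and nearly certain in the beta genes. For each gene the deposited posterior SD of its count, which measures how uncertain the assignment of shared reads is, was divided by the square root of the posterior mean count, which is the size of counting error. This assignment spread is 0 where no read is shared, and it is 1 where assignment is as uncertain as counting. The median was 0.787 over the protocadherins with a mean count of 20 or more, against 0 over all such genes, of which the 75th percentile was 0.0332. A spread of 0.5 or more was found in 36 of 57, against 6.96% of all genes. These 36 were the 14 alpha and 22 gamma genes. None of the 21 beta genes reached it, and 8 of them had a spread of 0, against 67.1% of all genes.

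The medians were 0.798 in alpha, 0.809 in gamma and 0.0398 in beta. C-type genes had a median of 0.759, close to the 0.807 of the alpha and gamma genes that are not of the C type. Over all genes outside the C type, beta included, the median was 0.787. The beta genes at 0 were Pcdhb2, Pcdhb3, Pcdhb5, Pcdhb13, Pcdhb14, Pcdhb15, Pcdhb16 and Pcdhb18. Of all 100-nt windows of these 8 beta genes, 100% occur in no other gene, whereas the share was 36.6% to 68.2% in the alpha and gamma genes other than Pcdha4, Pcdha11, Pcdhga10 and Pcdhga11, which were lower. The deposited TPM interval, which also covers counting error, had a median width of 0.219 times the level, against 0.178 over all genes. By cluster, its median was 0.177 in alpha, 0.244 in beta and 0.206 in gamma. The median counts differed too, at 798, 296 and 675, so these widths do not show the part of shared reads alone.

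The highest spreads were those of Pcdha4, Pcdhga10 and Pcdhgc4. Pcdha4 was the only one at 2 or more, at 2.93, against 1.47% of all genes. A read-through gene, Gm42416, starts inside Pcdha4 and ends in the gamma cluster, with 100% of its exon bases inside protocadherin genes. Pcdha4 had 3.19 TPM (replicate 1) and 4.28 TPM (replicate 2), with deposited intervals of 2.39 to 4.76 and 3.34 to 5.76 TPM, while Gm42416 had 4.81 and 5.21 TPM. Of the windows of Pcdha4, 10.0% are its own. Pcdhga10, at 1.21, overlaps the antisense gene Gm26672 over 55.2% of its exon bases and has 2.14% of windows to itself. Pcdhgc4, at 1.21 too, has the short transcript described above.

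Antisense genes run through the clusters, and the sources used here do not say whether counting used the strand. Of the 9 opposite-strand genes with exon bases inside a protocadherin gene, 9 had a posterior SD above 0 in both libraries, against 1 of 6 without such bases. The deposited assignment thus treated some reads of these 9 genes as shared, and reads of a protocadherin and of its antisense partner cannot be told apart. The overlap covered 63.5% of the exon bases of Pcdhb12, which had the highest spread in beta at 0.225 and 2.11 TPM in replicate 1 and 2.84 TPM in replicate 2. It covered 44.3% of Pcdha11, 29.0% of Pcdhga11 and 28.4% of Pcdhgc3. Some antisense genes were as high as a typical protocadherin. Pcdhga10 had 4.59 and 5.03 TPM, and Gm26672 opposite it had 4.03 and 3.84 TPM. Pcdhgc3 had 34.1 and 41.0 TPM, and BC037039 opposite it had 3.39 and 4.67 TPM.

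**Figure D4:**
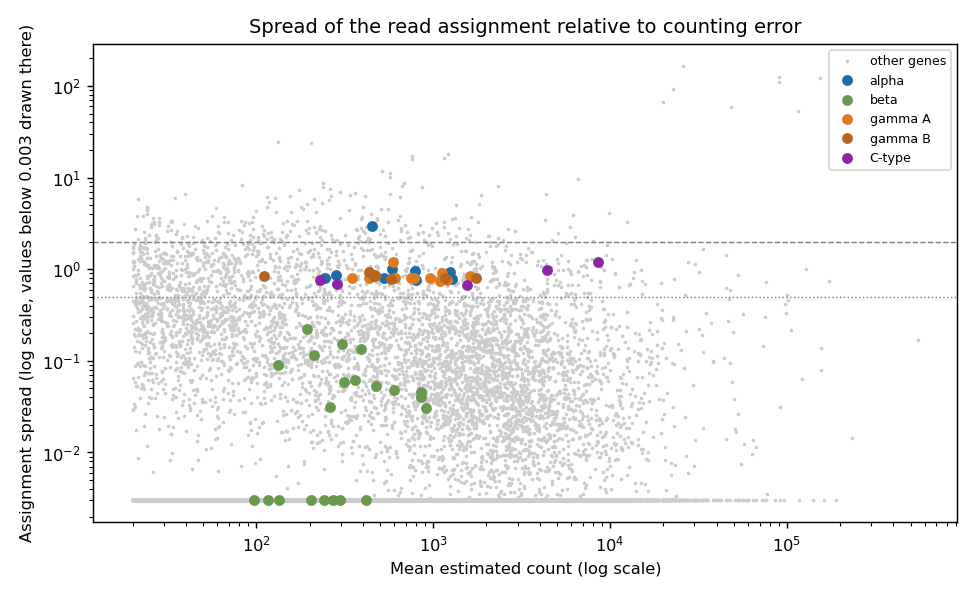
Assignment spread (y axis, log scale, values below 0.003 drawn there) against mean estimated count (x axis, log scale) for genes of 20 or more mean counts, with protocadherins in colour and all other genes in grey. Every alpha and gamma gene lies above the dotted line at 0.5, every beta gene lies below it, and Pcdha4 alone lies above the dashed line at 2.

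The pools of embryos gave like levels for nearly every gene of the family. The log2 ratio of replicate 1 over replicate 2 was computed on scaled counts for the 57 genes of 20 or more mean counts, and 95% exact (Clopper-Pearson) intervals cover counting error only. None of the 57 was past 1.5-fold, against 6.45% of all genes compared, of which 4.22% were higher and 2.23% lower in replicate 1. The median count of the 57 was 474, and the genes compared were not matched for count. The ratios have no replicate check, since each pool gave 1 library. Pcdha4 had the lowest ratio at -0.50 (-0.70 to -0.30), with 358 counts in replicate 1 and 546 in replicate 2. Pcdhb4 had 287 and 233 counts and a log2 ratio of 0.40 (0.16 to 0.67). Pcdha8 had 271 and 221 counts and a log2 ratio of 0.40 (0.14 to 0.67), so alpha genes had ratios to either side of 0. The interval of Pcdha4 leaves out its uncertain read assignment, with a spread of 2.93. Its deposited TPM intervals, 2.39 to 4.76 (replicate 1) and 3.34 to 5.76 (replicate 2), overlap.

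Small ratios leaned towards lower values in replicate 1 in alpha and gamma. The log2 ratio was below 0 in 41 of 57 protocadherins, against 50.5% of all genes compared, and their median was -0.10. In gamma, 19 of 22 genes were below 0, with a median of -0.15, and the summed gamma counts gave -0.21 (-0.23 to -0.19). In alpha, 11 of 14 were below 0 with a median of -0.14. In beta, 11 of 21 were below 0 with a median of -0.01. Pcdhgc4, with 7268 counts in replicate 1 and 9759 in replicate 2, had -0.32 (-0.36 to -0.27), and Pcdhgc3, with 3826 and 4954 counts, had -0.26 (-0.32 to -0.20). Alpha genes share the constant exons with each other, as do gamma genes, so these counts are not independent.

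The sign of these ratios is relative to the other genes. Scaled by spike-in totals, which moves the median of all genes to 0.11, the median of the protocadherins was 0.01, with 27 of 57 below 0 against 24.0% of all genes. The medians of gamma and beta were then -0.03 and 0.11. By transcript, the ratio of Pcdhgc4-201 was 0.03 (-0.06 to 0.11) and that of Pcdhgc4-203 was -0.55 (-0.61 to -0.48). That of the retained-intron transcript was -0.26 (-0.35 to -0.17). These intervals cover counting error only, and the assignment spread of the transcripts was 2.80 for Pcdhgc4-201 and 1.91 for each of the others, so the difference cannot be placed in 1 transcript.

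**Figure D5:**
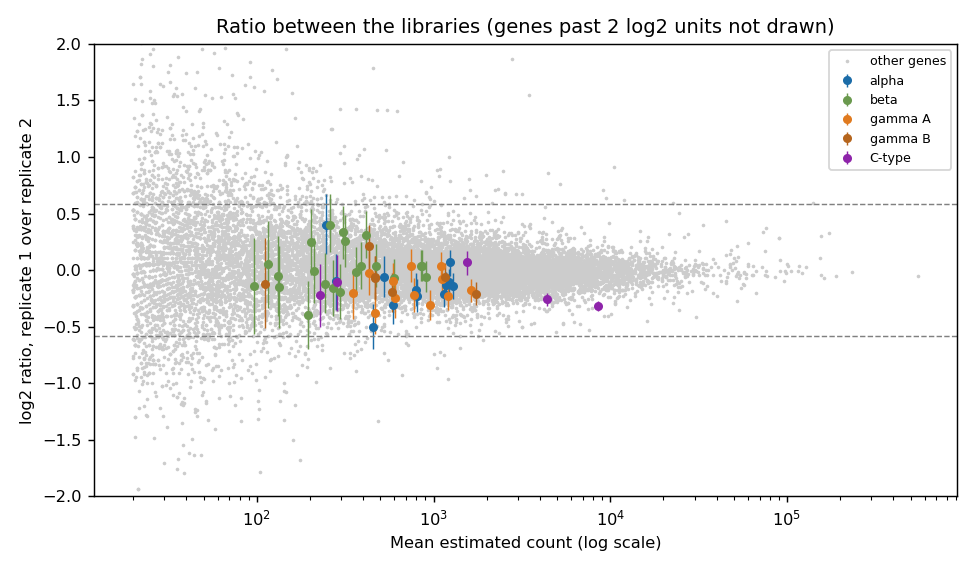
Log2 ratio of replicate 1 over replicate 2 (y axis) against mean estimated count (x axis, log scale) for genes of 20 or more mean counts, with protocadherins in colour, their 95% exact intervals as bars and other genes in grey. All 57 protocadherins lie between the dashed lines at 1.5-fold, and Pcdhgc4 and Pcdhgc3, the genes of highest count, lie below 0.

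The pools also differed in markers of cell types and regions. Summed markers of the Purkinje lineage, neurons in which gamma protocadherins are known to act in mice, were 104 TPM (replicate 1) and 150.3 TPM (replicate 2), with 5 of 6 detected. Caudal spinal cord markers summed to 2.35 and 16.4 TPM, with Hoxc10 at 0 in both libraries, and forebrain markers to 52.8 and 15.2 TPM. Choroid plexus markers summed to 898 and 1233 TPM, meningeal markers to 419 and 345 TPM and erythroid markers to 6359.8 and 4976 TPM. Postmitotic neuron markers were closer, at 2974 and 3073 TPM. Serotonergic markers, for the neurons that use Pcdhac2, summed to 37.3 and 40.9 TPM, with 5 of 5 detected. The part of these differences in the ratios of the protocadherins was not tested.

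Protocadherin genes were mostly well below the genes known to act on or with them. The protocadherins had a median of 4.01 ± 0.293 TPM, against 27.6 ± 0.336 TPM for 16 genes listed as regulators of the clusters. All 16 were detected. Trim28, a corepressor of silenced chromatin, had 175 TPM (replicate 1) and 188 TPM (replicate 2). Dnmt3a, a de novo DNA methyltransferase, had 112 and 84.7 TPM. Ctcf, which binds the variable promoters and loops them to distal enhancers, had 79.7 TPM in both. Dnmt3b, which methylates unused variable promoters in the mouse embryo, was the lowest of the 16 with 2.53 and 2.84 TPM.

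Of 17 genes listed as cytoplasmic or membrane partners 16 were detected, at a median of 47.4 ± 2.45 TPM. Mapt, the microtubule-associated protein tau, led with 737 TPM (replicate 1) and 842 TPM (replicate 2). The small GTPase gene Rac1 had 242 and 271 TPM, and Brk1, a subunit of the actin-regulating WAVE complex, 196 and 202 TPM. The kinases known to be inhibited by the constant domains stood far apart from each other. Ptk2, which encodes focal adhesion kinase, had 35.6 and 35.4 TPM, whereas Ptk2b, which encodes PYK2, had 0.730 and 0.600 TPM and was the only partner not detected.

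All 7 genes of proteolytic processing, which release protocadherin ectodomains and cytoplasmic ends, were detected, at a median of 44.3 ± 0.0707 TPM. The gamma-secretase subunit gene Psenen had 106 TPM (replicate 1) and 98.0 TPM (replicate 2). Ncstn, which encodes a further subunit, had 87.1 and 92.4 TPM. Psen2 had 16.0 and 15.1 TPM and the sheddase gene Adam17 14.6 and 16.4 TPM, the lowest of the list. None of the genes in these 3 lists was past 1.5-fold between the libraries.

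Genes that flank the clusters had higher levels too. Of 11 such genes 10 were detected, and their median was 27.3 ± 1.06 TPM. Ndufa2, which encodes a subunit of respiratory complex I, had 299 TPM (replicate 1) and 272 TPM (replicate 2). Hars, the gene of histidyl-tRNA synthetase, had 99.4 and 103 TPM, and the splicing factor gene Ik 87.1 and 87.2 TPM. Slc25a2, a mitochondrial carrier gene that lies between the beta and gamma clusters beside Taf7, had 0.700 and 0.520 TPM and was the one not detected. Taf7, a gene of the general transcription machinery in the same interval, had 13.9 and 13.5 TPM, a level that only Pcdhgc4 and Pcdhgc3 exceeded in both libraries.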

How the data were processed

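The members and gene lists were chosen with earlier results of these data known. Per the notes deposited with the tables, each library was quantified by itself on mm10 against GENCODE M4. Aligner, quantifier and strand use: not given in the sources used here. Per the file headers, the authors' deposited estimated counts are unnormalized and need not be whole, TPM is scaled over all features with spike-ins included, and FPKM (used as an alternative) is scaled by length and by assigned reads. The deposited posterior SD and interval bounds (a signal on the count or TPM scale) measure read assignment and TPM uncertainty. The deposited percent of a gene held by each transcript was not used, and shares were recomputed from TPM.

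Symbols, types and exons were those of GENCODE M21 for GRCm38, which is the mm10 assembly, and all 88 transcripts had the deposited length. Spike-ins (2.86% and 3.09% of counts) and features with numeric identifiers (5.61e-05% and 2.69e-05%) stayed out of library sizes. Counts were scaled by TMM in edgeR 4.0.16 (R 4.3.3, prior count 0.5, mean count of 20 or more), with DESeq2 1.42.0 size factors as an alternative. The ratio step was also run on simulated Poisson counts with known changes. Those counts held no shared reads and no further spread between pools, so they do not test read assignment. Other steps used Python 3.11.15. Named were all C-type genes, the 4 highest and 2 lowest per subfamily, the extremes of assignment spread, and the 3 highest and the lowest of each pathway list; other genes were named after their values had been seen. A gene that this rule takes is not reported here. Where reads are unshared the deposited posterior SD is 0, so the spread compares assignment with counting error and is not 1 under counting error alone. A transcript counted as joining both parts with 1000 own and 1000 constant bases or more, own bases being those outside the exons of other protocadherin genes. With 2 libraries, SDs measure the spread between these pools only. The exact intervals of ratios and the floors cover counting error only, while the deposited intervals also cover read assignment. No molecular identifiers were used.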

Additional observations from a re-analysis of the deposited data

How the results depend on the processing

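Detection ranged from 48 to 57 of 58 genes over the alternatives. The median of 4.01 TPM was 5.10 with TPM rescaled over nuclear protein-coding genes, 3.50 by the lower interval bounds and 3.92 to 4.33 with a replicate left out. By estimated counts the shares were 24.5% for alpha, 59.3% for gamma, 31.5% for the C type and 37.6% for the C type within alpha plus gamma. With the added alternatives, chosen after seeing the data, these were 24.3%, 52.8%, 21.0% and 27.2% for transcripts with variable and constant exons, with 22.9% for beta. They were 23.4%, 56.0%, 25.9% and 32.6% without Pcdhgc4-203, with 20.6% for beta. Fewer transcripts are summed there, by construction. Within gamma, the C-type share of 55.4% was 46.8% by estimated counts, 32.9% and 40.6% with those added alternatives, and within alpha the 13.7% was 15.5% by counts and 14.9% by transcripts with variable and constant exons; these within-cluster settings were also added after seeing the data. With no count filter 1 gene, Pcdhb1 with 2 and 0 counts, was past 1.5-fold. The median log2 ratio was 0.01 with spike-in totals and -0.13 as a TPM ratio with a pseudocount of 0.1. The median assignment spread was 0.775 to 0.791 with a replicate left out, and the width of the TPM interval, a different measure, was 0.219. At a spread threshold of 0.5, added after seeing the data, 36 genes were counted in place of 1. The cause of the other shifts was not tested. Over the settings of the main results, 72 values stayed close and 28 did not. For single genes these numbers were 346 and 57. Close meant within the spread between replicates, within counting error for ratios, and within 1.5 times for counts of genes. Leaving out 1 of 2 libraries moves a mean by less than their SD, so mean levels and shares stayed close there by construction. Shares by FPKM and by TPM are equal within a library apart from rounding, so that setting could not differ either. The numbers of close values therefore do not measure robustness by themselves. No paired analysis was possible because there was only 1 group.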
